A study of Homo sapiens with 6 samples.

Results

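The NADPH oxidase genes were followed in hiPSC-CMs exposed to alcohol, with and without losartan. The set held 9 genes of the 21134 in the series table, matched by symbol: the catalytic subunits NOX1, CYBB, NOX4, NOX5, DUOX1 and DUOX2, the membrane partner CYBA, the cytosolic organizer NCF1, and the small GTPase RAC1. They were matched by name as parts of the enzyme, and the matching rule uses no measured value, although the set was put together with earlier results of these data known. RNA was sequenced from 6 libraries in 3 groups of 2. The control hiPSC-CMs received no treatment, the alcohol group received 100 mM alcohol for 24 h, and the co-treated group received 100 mM alcohol with 1 μM losartan, a blocker of the angiotensin II type 1 receptor, for 24 h. All groups came from 1 line, H9, an embryonic stem cell line whose derived cells the labels nevertheless call hiPSC-CMs, and there was no group with losartan alone. The labels and the methods of the study describe losartan as given together with alcohol, while its results call it a pretreatment, so the order of the agents is uncertain. The samples were bulk cultures differentiated to beating cells with small molecules, so fewer cells of a type and less RNA per cell cannot be told apart.

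NADPH oxidases are membrane enzymes that pass electrons from NADPH across the membrane to oxygen, and so make superoxide or hydrogen peroxide as their main product. NOX1, CYBB (NOX2) and NOX4 need CYBA (p22phox) as a stabilizing partner. NOX1 and NOX2 also need cytosolic organizers and activators and GTP-bound RAC, NOX4 is active without them, and NOX5 and the DUOX enzymes are switched by calcium. In the heart, NOX2 and NOX4 are the forms usually described in cardiomyocytes, and NOX2 is also the oxidase of the phagocyte respiratory burst. The question the design puts to these genes is whether their RNA moved with alcohol and whether losartan given with alcohol altered that.

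In the gene annotation of the series table the members shared more than the family name. The GO function of an oxidoreductase that acts on NAD(P)H with oxygen as acceptor was given to 8 of the 9 members, all but RAC1, and to 12 genes of the whole table. The KEGG orthology column placed NOX1, CYBB and NOX4 under 1 common number and NOX5, DUOX1 and DUOX2 under another.

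The members are spread over the genome, apart from the DUOX pair. In the RefSeq annotation of GRCh38.p14, NOX1 (chrX:100843324-100874359, minus strand) and CYBB (chrX:37780059-37813461, plus strand) lie on the X chromosome. NOX4 lies at chr11:89324353-89589557 on the minus strand and CYBA at chr16:88643289-88651053 on the minus strand. NOX5 (chr15:69014695-69062762, plus strand) shares chromosome 15 with DUOX2 (chr15:45092650-45114172, minus strand) and DUOX1 (chr15:45129994-45165574, plus strand). NCF1 (chr7:74774011-74789315) and RAC1 (chr7:6374527-6403967) are both on the plus strand of chromosome 7. Values were given per gene, so no exon or isoform is told apart.

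The DUOX genes are shown first by sequence, because they lie beside the genes of their own maturation factors. DUOX2 and DUOX1 lie on chromosome 15 with their starts 15822 bases apart, and each begins head to head with its partner, DUOXA2 or DUOXA1, which carries the enzyme out of the endoplasmic reticulum. In the RefSeq annotation of GRCh38.p14 the DUOX2 and DUOXA2 starts were 154 bases apart and the DUOX1 and DUOXA1 starts 115 bases apart. A start on the opposite strand within 200 bases upstream was found for 2 of the 8 members with a promoter entry, both of them DUOX genes, and for 12.3% of 27305 RefSeq genes. The bases between the starts are given below in the sense of the DUOX gene, 5′ to 3′. Each printed stretch therefore begins beside the DUOXA start and ends beside the DUOX start, whatever the order of the names in its label. They lie at chr15:45114173-45114325 on the minus strand for DUOX2 (153 bases) and at chr15:45129880-45129993 on the plus strand for DUOX1 (114 bases). Capitals mark the letters TATAAA or GGGCGG on either strand, the only motifs searched.
DUOX2 to DUOXA2: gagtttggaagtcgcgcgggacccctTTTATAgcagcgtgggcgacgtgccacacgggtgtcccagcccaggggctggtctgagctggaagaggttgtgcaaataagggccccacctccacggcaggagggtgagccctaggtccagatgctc
DUOX1 to DUOXA1: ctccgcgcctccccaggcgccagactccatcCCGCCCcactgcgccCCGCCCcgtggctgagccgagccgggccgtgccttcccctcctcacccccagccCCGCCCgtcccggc

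The stretch beside DUOX2 held TATAAA once, read in the direction of DUOXA2, with its nearest base 27 bases upstream of the DUOXA2 start. The stretch beside DUOX1 held GGGCGG 3 times, each read in the direction of DUOXA1. Among RefSeq promoters of 300 bases, 3264 of 27305 held TATAAA and 12174 (44.6%) held GGGCGG on either strand. A match in letters is a description of the sequence and was not taken as a bound site.

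**Figure D1:**
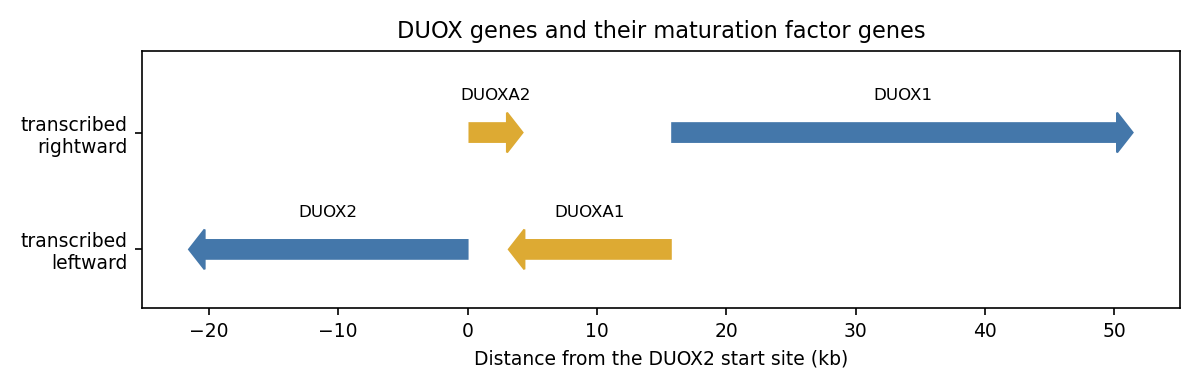
Map of the 4 genes in kb from the DUOX2 start site, with arrows that run in the direction of transcription, DUOX genes in blue and maturation factor genes in yellow. DUOX2 begins 154 bases from DUOXA2, and DUOX1 begins 115 bases from DUOXA1.

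NCF1 is shown by sequence because its reads are hard to place. NCF1 encodes p47phox, and a pair of pseudogene copies, NCF1B and NCF1C, lie on the same chromosome. Of all 50-base windows of the NCF1 transcripts in GENCODE 29, 70.9% also occurred in a transcript of NCF1B or NCF1C. A well-known difference is a GT repeat at the start of exon 2. The first 10 bases printed are the end of exon 1, the rest is exon 2 at chr7:74777267-74777284 (GRCh38, plus strand) for NCF1 and at chr7:75168695-75168710 (minus strand) for NCF1C, and capitals mark the repeat.
NCF1: ccagcactatGTGTacatgttcctggtg
NCF1C: ccagcactatGTacatgttcctggtg

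The repeat was present 2 times in the NCF1 transcript and 1 time in that of NCF1C, and over 1394 aligned bases the transcripts were 99.4% identical. Short of reads that cross such a place, NCF1 and its copies share reads, so a value for NCF1 is uncertain.

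The libraries were alike in depth, and the cultures carried the markers of their label. The expected counts, which are estimates of the reads per gene that need not be whole numbers, summed to between 4898287 and 5051448 per library, so that 3 counts, the limit that a count of 0 allows, were 0.594 to 0.612 CPM (counts scaled to library size). All 9 cardiomyocyte markers had a mean of 1 FPKM or more, and TNNT2, cardiac troponin T, had a mean of 3470 FPKM (fragments scaled to transcript length and library size). Markers of other cells were present too. Of 8 fibroblast markers 7 reached this level, with COL3A1 at 167 FPKM, and of 5 pluripotency markers 4 did, with POU5F1 at 5.92 FPKM. Which cells the reads of a member came from was not tested. Replicates of a group had Pearson's r between 0.975 and 0.978 across genes on log2 CPM, and they differed beyond counting noise in every group. The labels do not say whether the replicates were separate cultures, so p-values measure the spread between these libraries, which may be technical.

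The members spanned 3 orders of magnitude. RAC1 was the highest with a mean of 73.8 FPKM over the 6 libraries, at the 96.1th percentile of all genes listed, and CYBA followed with 11.2 FPKM at the 71.3th percentile. The catalytic genes were all low: NOX1 had a mean of 1.16 FPKM, DUOX2 0.697, NOX4 0.58, CYBB 0.548, NOX5 0.497 and DUOX1 0.268, which placed them between the 18.2th and 33.5th percentiles. NCF1 was last with 0.0683 FPKM. The lowest library of RAC1 was above the highest of CYBA, and the lowest of CYBA was above the highest of NOX1. Below NOX1 each gene overlapped its neighbour in the order: NOX1 was above DUOX2 in 5 of 6 libraries, DUOX2 above NOX4 in 3, NOX4 above CYBB in 3, CYBB above NOX5 in 4 and NOX5 above DUOX1 in 4.

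**Figure D2:**
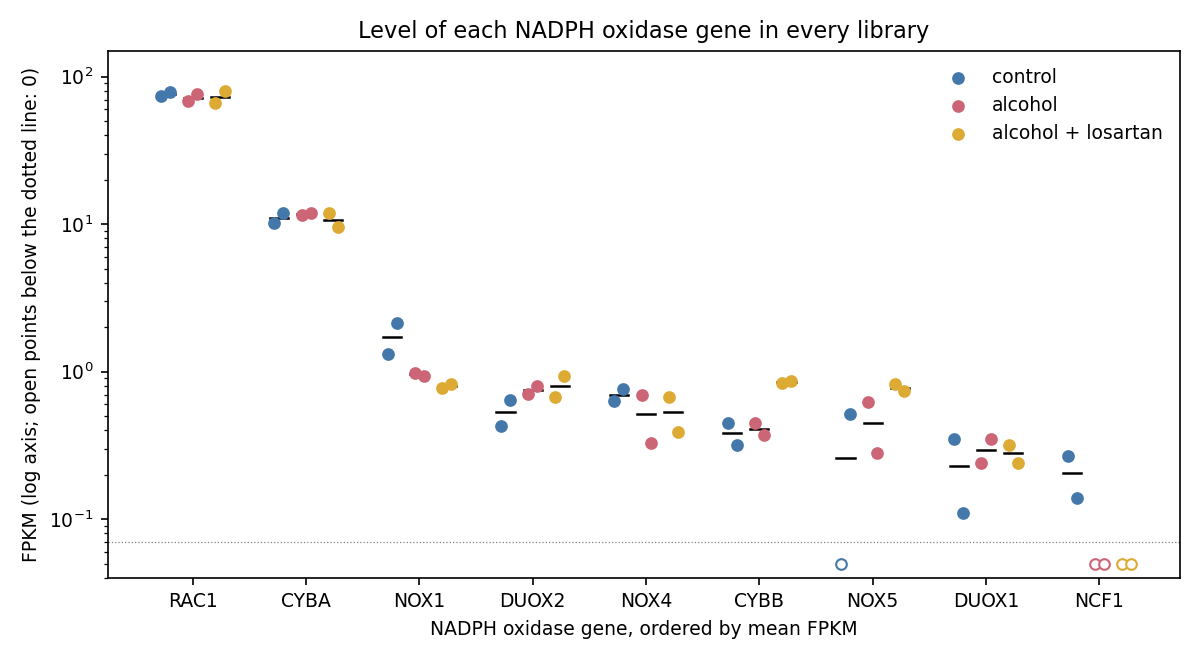
FPKM of the 9 genes in each of the 6 libraries on a log axis, with a point per library, colours for the groups and a black bar at the mean of a group. Open points under the dotted line are libraries at 0. RAC1 and CYBA stood above all catalytic genes in every library, and the co-treated points of CYBB and NOX5 lay above, and those of NOX1 below, both control points. CYBB and NOX5 reached the level needed for testing in the co-treated libraries alone.

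The depth set a limit on the catalytic genes. Of 21134 genes 14926 passed the expression filter, which asked for a CPM equal to about 10 counts in at least 2 libraries, and 7 of the 9 members were among them. NCF1 and DUOX1 did not pass. CYBB and NOX5 passed through the 2 co-treated libraries alone, so their being tested is itself tied to that group, and RAC1, CYBA and DUOX2 reached the filter in all 6 libraries.

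NOX1, the homologue first described in colon epithelium and also known in vascular smooth muscle, was the highest catalytic gene of the control cells. Its FPKM was 1.31 and 2.13 in the control libraries, 0.98 and 0.94 with alcohol, and 0.77 and 0.83 with alcohol and losartan. Both control libraries were above all 4 exposed libraries, and the alcohol libraries were above the co-treated ones. The expected counts were 16 and 26, then 12 and 11, then 9 and 10, so that the group means were 1.72 ± 0.580, 0.96 ± 0.0283 and 0.80 ± 0.0424 FPKM (SD, n = 2 each).

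In the fit of edgeR, which models the counts of all genes in all 6 libraries, the log2 fold change of NOX1 was -0.88 (SE 0.47, 95% interval -1.89 to 0.13, adjusted p = 0.528) for alcohol against control. It was -1.16 (SE 0.48, interval -2.20 to -0.11, adjusted p = 0.337) for co-treated against control, and -0.28 (adjusted p = 0.971) for co-treated against alcohol. None of the 3 differences passed the threshold of 0.05 after adjustment over all genes tested. The control libraries set the size of the first, which was -1.16 without control replicate 1 and -0.49 without control replicate 2. Smooth muscle markers were also highest in control: the summed level of the 4 markers, all of them detected, was 2260 to 2590 CPM in control, 985 to 1990 with alcohol and 1370 to 1410 in co-treated libraries. For ACTA2, smooth muscle actin, the fall from control to co-treated passed the test (log2 fold change -1.25, adjusted p = 0.0203). The part of these markers in the NOX1 values was not tested.

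CYBB, the gene of NOX2, was highest in the co-treated libraries. Its expected counts were 10 and 7 in control, 10 and 8 with alcohol, and 18 and 19 with alcohol and losartan, and its FPKM was 0.45 and 0.32, then 0.45 and 0.37, then 0.84 and 0.86. Both co-treated libraries were above the 4 others, while the control and alcohol libraries overlapped. The mean FPKM was 0.385 ± 0.0919 in control, 0.41 ± 0.0566 with alcohol and 0.85 ± 0.0141 in the co-treated group (SD, n = 2 each). The summed counts were 17, 18 and 37, with exact Poisson intervals of 9.9 to 27.2, 10.7 to 28.4 and 26.1 to 51.0, which cover counting error only.

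The log2 fold change of CYBB was 0.06 (SE 0.55, interval -1.13 to 1.25, adjusted p = 0.979) with alcohol alone. It was 1.03 (SE 0.49, interval -0.04 to 2.09, adjusted p = 0.899) for co-treated against alcohol and 1.09 (SE 0.50, interval 0.01 to 2.17, adjusted p = 0.391) for co-treated against control, and it was not called in any of them. The co-treated libraries serve in both of these comparisons. CYBB reached the expression filter in the co-treated libraries alone, so it was tested through the group where it was high. Its fold changes and intervals are therefore no support for a direction. CYBB is best known from phagocytes, so leukocyte markers are given beside it. Of the 12 listed for this check, ITGAM, MPO and FCGR3A were not listed in the table, and ITGB2, CD14, SPI1, TYROBP and AIF1 had at most 3 counts in every library. LYZ, CD68 and PTPRC had means of 25.1, 2.21 and 1.29 FPKM over the 6 libraries, and CSF1R had 0.0867. The summed level of the list was 41.0 to 45.5 CPM in control, 39.6 to 43.8 with alcohol and 43.8 to 52.8 in co-treated libraries. Most of that sum was LYZ, with group means of 37.1, 35.0 and 41.3 CPM. PTPRC had 1.52 CPM in control, 1.897 with alcohol and 2.198 in co-treated libraries, so both markers had their highest mean there. The co-treated libraries of PTPRC overlapped those of both other groups. CD68 had its highest mean in control, at 5.18 CPM against 3.50 with alcohol and 3.39 in co-treated libraries. Endothelial markers, 6 of 6 listed, summed to 36.3 to 40.5, 45.2 to 52.3 and 53.7 to 64.1 CPM in the same order. KDR made up most of it, with 24.0, 35.6 and 43.6 CPM, and CDH5 had 1.219, 1.407 and 2.596 CPM. The co-treated libraries of CDH5 were both above control and overlapped those with alcohol. TEK was highest in control at 7.82 CPM, against 5.71 and 5.88, and PECAM1 had 4.16, 3.69 and 4.39 CPM. The part of either list in the CYBB values was not tested.

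NOX1 was above CYBB in FPKM in every control and alcohol library, and they were close in the co-treated libraries. The ratio of their FPKM was 2.91 and 6.66 in control, 2.18 and 2.54 with alcohol, and 0.917 and 0.965 in the co-treated group. This ratio was looked at after the values were seen, so it is a description without a test. The deposited length was 2382 or 2418 bases for NOX1 and 4353 for CYBB. At equal FPKM NOX1 therefore holds the smaller part of the joint counts. Of the counts of both genes together, NOX1 held 61.5% (exact binomial interval 40.6 to 79.8%) and 78.8% (61.1 to 91.0%) in control. It held 54.5% (32.2 to 75.6%) and 57.9% (33.5 to 79.7%) with alcohol, and 33.3% (16.5 to 54.0%) and 34.5% (17.9 to 54.3%) in the co-treated libraries. The intervals of control replicate 1 and of both alcohol libraries overlapped both co-treated intervals, and the alcohol intervals overlapped those of control. These intervals cover counting error only, so neither their overlap nor its lack is a test of the groups. CYBB also reached the expression filter in the co-treated libraries alone, so the ratio is no support for a direction.

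NOX4, the constitutively active form that makes mainly hydrogen peroxide, did not separate the groups. Its expected counts were 13.84 and 15.97 in control, 15.98 and 7.08 with alcohol, and 14.61 and 8.11 with alcohol and losartan. In FPKM these were 0.63 and 0.76, 0.70 and 0.33, and 0.67 and 0.39. Replicate 1 of each exposed group was at the level of control, and replicate 2 of each was lower, so the spread lay within the groups. The group means were 0.695 ± 0.0919, 0.515 ± 0.262 and 0.53 ± 0.198 FPKM (SD, n = 2 each).

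The log2 fold change of NOX4 was -0.40 (SE 0.55, adjusted p = 0.852) for alcohol against control, with a 95% interval from -1.58 to 0.79, which in fold is 0.334 to 1.73. For co-treated against alcohol it was -0.01 (SE 0.57, interval -1.24 to 1.23, adjusted p = 1), and for co-treated against control it was -0.40 (adjusted p = 0.82). Its sign in the first comparison rested on 1 library: without alcohol replicate 2 the log2 fold change was 0.09. The intervals allow a change of either sign, and a difference inside them was not detectable at this depth. The transcript length the authors deposited for NOX4 also varied, from 4122 to 4459 bases between libraries.

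Of 6529 genes with a spread of at least 0.5 times that of NOX4, those with the most similar pattern over the 6 libraries were ADAP1, MPP3 and ABCB5. Their root mean square difference from NOX4, on log2 CPM centred on the mean of each gene, was 0.0893, 0.114 and 0.124, against an SD of 0.463 for NOX4 itself. All of them were low in replicate 2 of both exposed groups. With 6 libraries and this many candidates, the likeness is a description.

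NOX5, the calcium-switched form with EF hands that rodents lack, was at the edge of detection. Its expected counts were 0 and 7.84 in control, 9.29 and 4 with alcohol, and 11.9 and 10.7 with alcohol and losartan. The FPKM were 0 and 0.52, 0.62 and 0.28, and 0.82 and 0.74. Both co-treated libraries were above the 4 others, and control replicate 1 held no read. The log2 fold change for co-treated against control was 1.48 (SE 0.87, interval -0.41 to 3.36, adjusted p = 0.524), and its size rested on the control libraries, since it was 0.51 without control replicate 1 and 6.53 without control replicate 2. It was 0.67 (adjusted p = 0.856) for alcohol against control and 0.81 (adjusted p = 0.952) for co-treated against alcohol. NOX5 reached the expression filter in the co-treated libraries alone, so these values are no support for a direction. NOX5 exons also share 193 bases with SPESP1 and 1096 bases with a noncoding transcript on the same strand, so some of its counts cannot be assigned with certainty.

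DUOX2, a peroxide-making oxidase of thyroid and mucosal epithelium, had its lowest values in control cells. Its FPKM was 0.43 and 0.64 in control, 0.71 and 0.80 with alcohol, and 0.67 and 0.93 with alcohol and losartan. All 4 exposed libraries were above both control libraries, by as little as 0.67 against 0.64. In TMM-scaled CPM this was not so, since 4.22 in control replicate 2 was just above 4.21 in co-treated replicate 1. The log2 fold change was 0.43 (SE 0.40, interval -0.43 to 1.29, adjusted p = 0.753) with alcohol, 0.52 (adjusted p = 0.649) for co-treated against control and 0.08 (adjusted p = 0.988) between the exposed groups. With alcohol it was 0.20 without control replicate 1 and 0.75 without control replicate 2. For co-treated against control it was 0.27 and 0.82 without these libraries, and 0.24 without co-treated replicate 2. Epithelial and endoderm markers, 7 of 7 listed and FOXA2 at no more than 3 counts in any library, summed to 98.9 to 100 CPM in control, 118 with alcohol and 114 to 124 in co-treated libraries. In TMM-scaled CPM, EPCAM had group means of 33.5, 37.5 and 37.0, AFP 43.2, 46.6 and 51.5, and APOA1 14.4, 22.4 and 18.1. CDH1 had 5.36, 4.92 and 5.39, and ALB 4.66, 4.41 and 4.30, so these were not higher with alcohol. The part of this list in the DUOX2 values was not tested.

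The partner DUOXA2 had expected counts of 1 and 1 in control, 3 and 4 with alcohol and 2 and 6 in co-treated libraries. DUOXA1 had 0 and 0, then 1 and 1, then 0 and 2. These genes, which share the printed stretches with the DUOX genes, were too low to be tested. DUOX1 itself had 9.9 and 3.15 counts in control, 6.76 and 9.52 with alcohol and 8.64 and 6.61 with alcohol and losartan, with overlap between all groups. DUOX1 and DUOX2 share 450 of their 50-base windows, 7.32% and 6.89% of each, so a small part of their reads may be split between them.

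**Figure D3:**
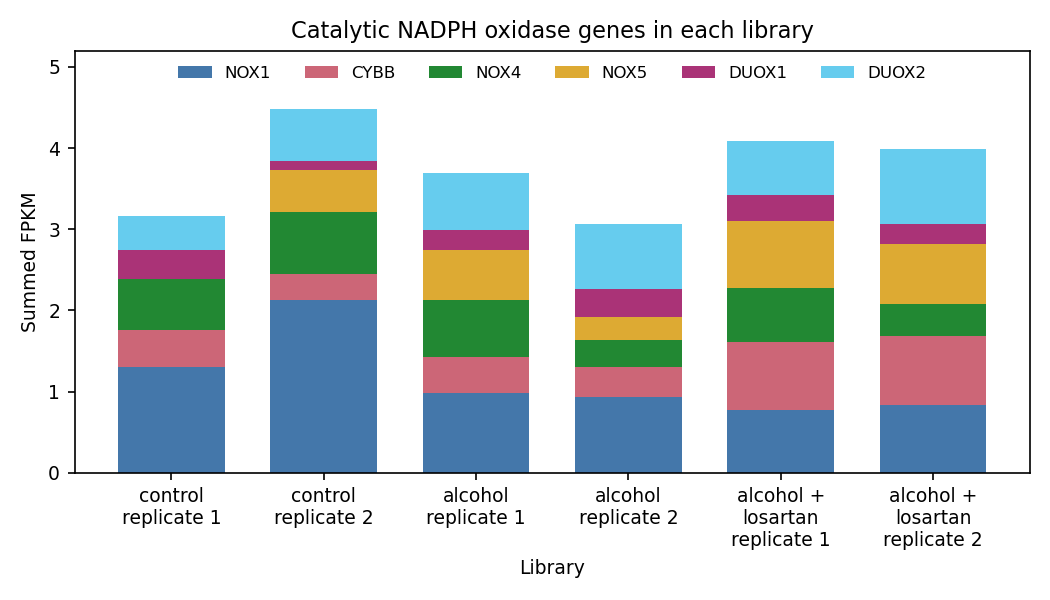
Summed FPKM of the 6 catalytic genes in each library, as bars that start at 0 with a colour per gene. The sum ran from 3.07 to 4.48 FPKM, and the NOX1 part was 41.3% and 47.5% in control and 18.8% and 20.8% in co-treated libraries.

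The sum of the 6 catalytic genes overlapped between control and each exposed group, and both co-treated libraries were above both alcohol libraries. The sum was 3.17 and 4.48 FPKM in control, 3.70 and 3.07 with alcohol, and 4.09 and 3.99 with alcohol and losartan, so that the control libraries enclosed the co-treated ones. The means were 3.83 ± 0.926, 3.39 ± 0.446 and 4.04 ± 0.0707 FPKM (SD, n = 2 each). CYBB and NOX5, which passed the filter through the co-treated libraries alone, had means of 0.85 and 0.78 FPKM there, against 0.41 and 0.45 with alcohol. NOX1 and DUOX1 were lower in co-treated libraries, at 0.80 and 0.28 against 0.96 and 0.295. NOX4 and DUOX2 had 0.53 and 0.80 against 0.515 and 0.755. The share of NOX1 was 41.3% and 47.5% in control, 26.5% and 30.6% with alcohol and 18.8% and 20.8% in co-treated libraries. The share of CYBB was 14.2% and 7.14%, 12.2% and 12.1%, and 20.5% and 21.6%.

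CYBA, the p22phox partner of NOX1, NOX2 and NOX4, was level in all groups. Its FPKM was 10.24 and 11.86 in control, 11.56 and 11.91 with alcohol, and 11.92 and 9.50 with alcohol and losartan, and the groups overlapped. The log2 fold change was 0.05 (SE 0.27, interval -0.54 to 0.64, adjusted p = 0.970) with alcohol, -0.14 (adjusted p = 0.971) for co-treated against alcohol and -0.09 (adjusted p = 0.928) for co-treated against control. CYBA stood at 2.38 to 3.88 times the sum of the catalytic genes in FPKM.

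RAC1, the GTPase that activates NOX1 and NOX2 and has many other roles in the actin cytoskeleton, had 762 to 941 expected counts per library. Its FPKM was 73.47 and 78.91 in control, 68.12 and 75.96 with alcohol, and 66.32 and 79.96 with alcohol and losartan, with overlap between all groups. On TMM-scaled CPM the alcohol libraries, at 163 and 172, were both below the control libraries, at 178 and 187. The log2 fold change was -0.12 (SE 0.13, interval -0.39 to 0.15, adjusted p = 0.788) with alcohol, and 0.02 (adjusted p = 0.994) and -0.10 (adjusted p = 0.789) for co-treated against alcohol and against control. This interval is the narrowest among the members. Of the 50-base windows of RAC1 transcripts, 16.4% also occur in its processed pseudogenes.

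NCF1 was listed with expected counts of 2 and 1 in the control libraries and 0 in the other 4. The summed control count of 3 had an exact Poisson interval of 0.619 to 8.77, and a sum of 0 in either exposed group had an upper limit of 3.69, so a difference was not detectable. NCF1C had 0 and 0, 1 and 1, and 0 and 1 counts, and NCF1B was not listed.

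**Figure D4:**
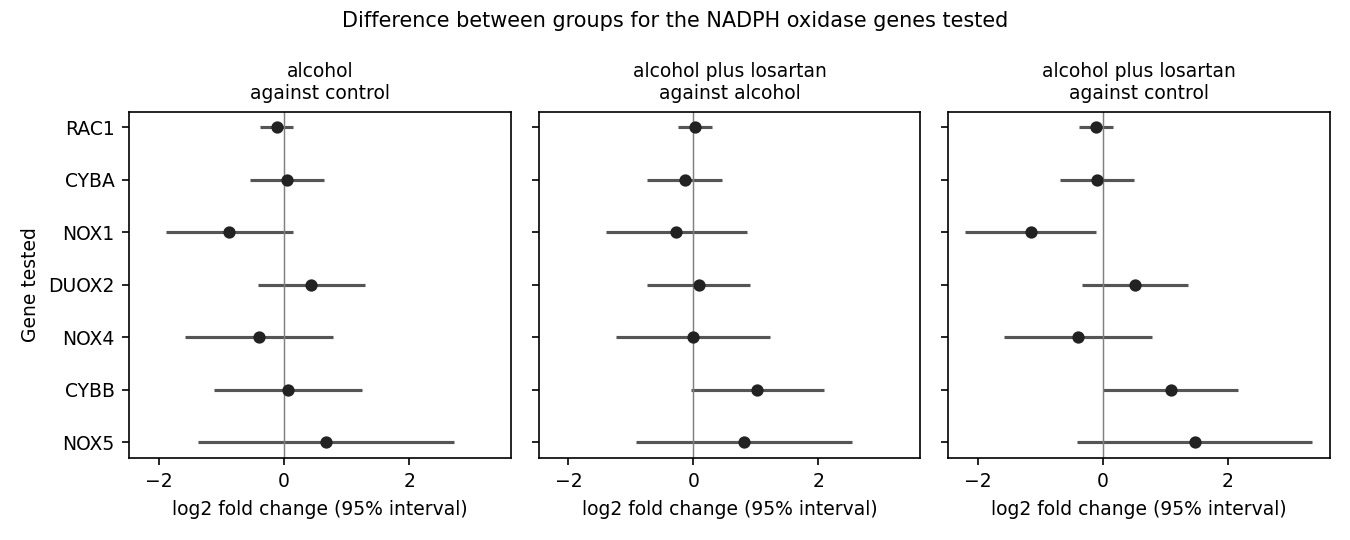
Log2 fold change of the 7 genes tested in the 3 comparisons, with a point at the edgeR estimate and a line for its 95% interval. Only NOX1 and CYBB in co-treated against control had intervals that did not reach 0, and neither passed after adjustment. CYBB and NOX5 were tested only through the co-treated libraries.

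With alcohol against control, edgeR called 0 of 7 members after adjustment, against 0.0670% of all 14926 genes tested. At an unadjusted p under 0.05 it also named 0 of 7, where 11.0% of all genes reached that level. DESeq2 called 0 members, beside 72 of 14926 genes, and 0 members had an unadjusted p under 0.05, beside 890 genes. Both alcohol libraries were above both control libraries in TMM-scaled CPM for 1 member, DUOX2, and below them for 2, NOX1 and RAC1. Over all genes tested these shares were 22.0% above and 21.8% below. The median log2 fold change of the 7 members was 0.05, and that of all genes was -0.00.

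With co-treated cells against alcohol, 0 of 7 members were called by edgeR or DESeq2, against 0.0134% of all genes by edgeR, and 0 members had an unadjusted p under 0.05 by either tool, against 5.55% of all genes by edgeR. DESeq2 called 5 of 14926 genes, and 351 had an unadjusted p under 0.05. CYBB and NOX5 were higher in both co-treated libraries and NOX1 was lower in both. Of all genes 17.4% were higher and 16.2% lower in this way. CYBB and NOX5 passed the filter through the co-treated libraries alone, so their values are no support for a direction in this comparison either. The median of the members was 0.02 and that of all genes 0.00.

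With co-treated cells against control, 0 of 7 members were called by edgeR or DESeq2, against 0.362% of all genes by edgeR. At an unadjusted p under 0.05 edgeR named 2 members, CYBB higher and NOX1 lower, where 12.6% of all genes reached that level. DESeq2 named 0 at this level, where 1031 of 14926 genes reached it, and it called 128 genes after adjustment. CYBB and NOX5 were above both control libraries and NOX1 was below, beside 21.6% and 21.7% of all genes. CYBB and NOX5 were tested only because they were high in the co-treated group, so their counts here are no support for a direction. The median was -0.09 for the members and -0.00 for all genes. The 3 comparisons share libraries with each other, and with 2 libraries against 2 an exact two-sided permutation test of a single gene cannot go below p = 0.333.

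The other genes of the complex were measured from a list of 12, of which NOX3 and NCF4 were not listed in the table and 6 passed the filter. Of these 6, 0 were called in any comparison by edgeR, and 0 had an unadjusted p under 0.05. Over all genes tested, 0.0670%, 0.0134% and 0.362% were called with alcohol against control, co-treated against alcohol and co-treated against control. An unadjusted p under 0.05 was reached by 11.0%, 5.55% and 12.6% of them. These shares also stand beside the lists below. Of the NOX1 partners, the organizer NOXO1 had 0 to 3 counts, while the activator NOXA1 was clearly present with 6.24 ± 0.969 FPKM in control, 7.73 ± 1.60 with alcohol and 6.83 ± 2.50 in co-treated cells (SD, n = 2 each), with overlap. C17orf62, the older symbol of CYBC1, a chaperone of the NOX2 and p22phox heterodimer, had means of 15.3 to 15.7 FPKM in the 3 groups. POLDIP2, which binds p22phox and acts on NOX4, had means of 35.4 to 37.9 FPKM, and RAP1A, a GTPase bound to the NOX2 heterodimer, had means of 15.7 to 17.3 FPKM.

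The other RAC genes were named for their part in the same complex. RAC2, the form of blood cells, had expected counts of 4 and 8 in control, 13 and 14 with alcohol and 15 and 13 in co-treated cells. All exposed libraries were above both control libraries. RAC2 reached the expression filter only in the 4 exposed libraries, so that it was tested through the groups where it was high, and its values are no support for a direction. In the fit its log2 fold change was 1.14 (interval -0.09 to 2.36, adjusted p = 0.492) with alcohol and 1.18 (interval -0.03 to 2.40, adjusted p = 0.411) for co-treated against control. RAC3, the form known from neurons, had 58 and 57 counts in control, 51 and 35 with alcohol and 47 and 24 in co-treated cells. Neither gene was called in any comparison.

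The proteins that switch RAC were read from a list of 15 guanine nucleotide exchange factors, GTPase activating proteins and dissociation inhibitors. VAV1 was not listed, 14 were tested and 0 were called in any comparison. The unadjusted p was under 0.05 for 1 higher and 1 lower gene with alcohol, for 1 lower gene in co-treated against alcohol and for 3 lower genes in co-treated against control, where 11.0%, 5.55% and 12.6% of all genes reached that level. The list median was -0.19, -0.17 and -0.27 in these comparisons, beside medians of all genes at -0.00, 0.00 and -0.00. ARHGDIA, the dissociation inhibitor that holds RAC1 in the cytosol, had the highest level of the list. Its FPKM was 42.3 and 47.2 in control, 45.6 and 33.4 with alcohol and 34.3 and 31.2 in co-treated cells. Its log2 fold change for co-treated against control was -0.50 (interval -0.84 to -0.15, adjusted p = 0.213). CHN1, a RAC GTPase activating protein, was at -0.37 (adjusted p = 0.340) in the same comparison, and RACGAP1, which acts in cytokinesis, was at -0.58 (adjusted p = 0.375) with alcohol, 0.47 (adjusted p = 0.900) for co-treated against alcohol and -0.11 (adjusted p = 0.896) for co-treated against control. DOCK1, an exchange factor for RAC named after its values were seen, was the higher gene with alcohol, at 0.30 (adjusted p = 0.425), and was at -0.07 (adjusted p = 0.971) and 0.23 (adjusted p = 0.514) in the other comparisons.

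Kinases that phosphorylate p47phox or act on the oxidases were all expressed, and 0 of 8 were called or had an unadjusted p under 0.05. Of all genes tested, edgeR called 0.0670%, 0.0134% and 0.362% in the 3 comparisons, and 11.0%, 5.55% and 12.6% had such an unadjusted p. The median log2 fold change of the list was 0.05 with alcohol, 0.12 for co-treated against alcohol and 0.20 for co-treated against control. Medians of all genes were -0.00, 0.00 and -0.00. MAPK14 (p38 alpha) had means of 19.7 to 20.8 FPKM in the groups. PAK1, a kinase activated by RAC, had 8.28 and 10.2 FPKM in control, 7.51 and 10.6 with alcohol and 11.5 and 11.5 in co-treated cells. PRKCA, a protein kinase C, had log2 fold changes of 0.17, 0.17 and 0.34 in the 3 comparisons, and PRKCZ, another, had 0.07, -0.06 and 0.01.

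The genes that remove superoxide and hydrogen peroxide were above the catalytic oxidase genes in FPKM, most of them far above. SOD3 was the lowest of them, with group means of 3.3 to 3.9 FPKM. All 15 genes of the list were tested, 0 were called in any comparison, and their summed level was 1870 to 2050 CPM in the 6 libraries. The highest were the peroxiredoxins PRDX2, PRDX1, PRDX5 and PRDX6, and the first 3 had group means of 285 to 305, 245 to 283 and 228 to 257 FPKM. The unadjusted p was under 0.05 with alcohol for 2 of the 15, CAT and PRDX4, which were named after their values were seen, beside 11.0% of all genes. CAT, catalase, had 11.2 and 11.4 FPKM in control, 14.5 and 16.9 with alcohol and 13.2 and 15.9 in co-treated cells, and its log2 fold change was 0.43 (interval 0.07 to 0.79, adjusted p = 0.353) with alcohol. PRDX4, the peroxiredoxin of the endoplasmic reticulum, had 103 and 114 FPKM in control, 80.2 and 77.4 with alcohol and 82.2 and 95.4 in co-treated cells. Its log2 fold change was -0.50 (interval -0.78 to -0.21, adjusted p = 0.170) with alcohol and -0.33 (adjusted p = 0.305) for co-treated against control. All exposed libraries of CAT lay above control and all of PRDX4 below it. In TMM-scaled CPM both alcohol libraries were above both control libraries for 2 of the 15 genes and below for 5. Over all genes tested these shares were 22.0% and 21.8%.

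**Figure D5:**
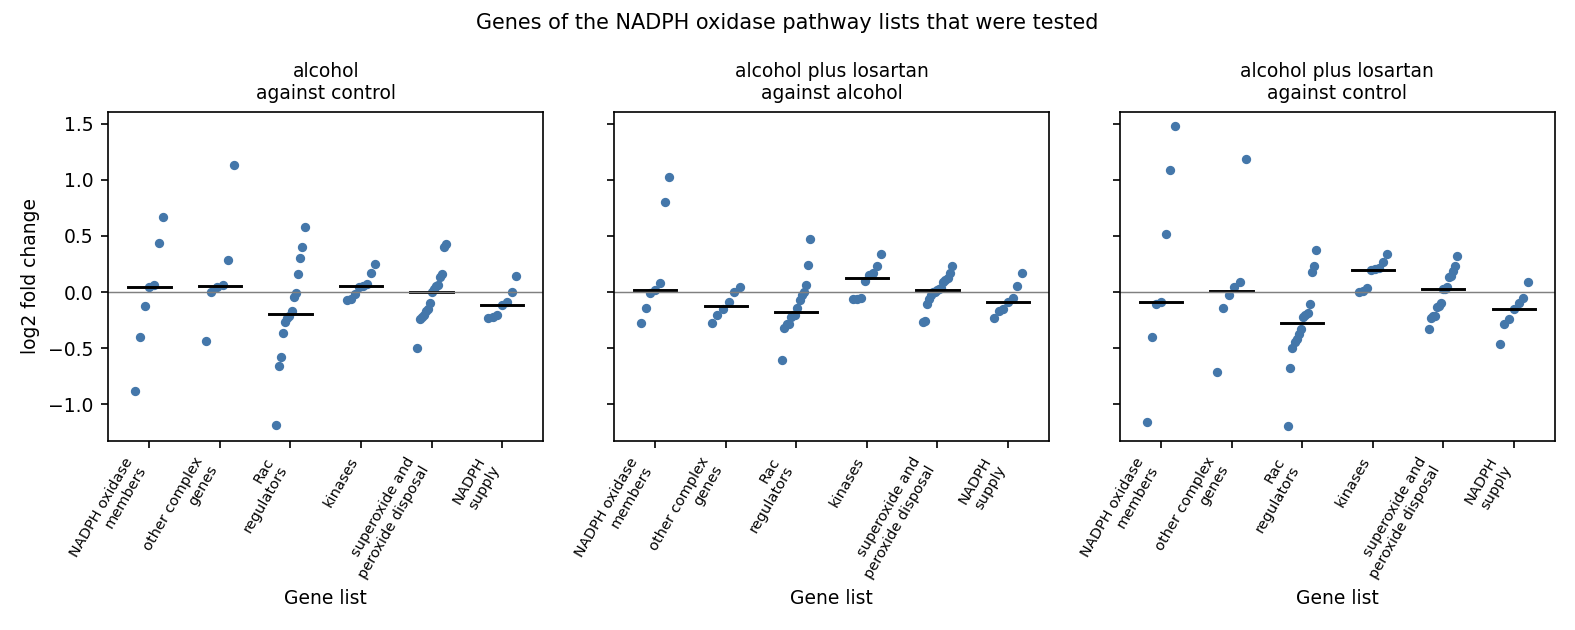
Log2 fold change of the genes tested in 6 lists for the 3 comparisons, with a point per gene and a black bar at the median of a list. The medians ran from -0.27 to 0.20, and 0 genes of these lists were called. Of all genes tested, edgeR called 0.0670%, 0.0134% and 0.362% in the 3 comparisons.

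The enzymes that supply NADPH gave a median log2 fold change of -0.12, -0.09 and -0.15 in the 3 comparisons, beside -0.00, 0.00 and -0.00 for all genes. By edgeR 0 of 7 were called, against 0.0670%, 0.0134% and 0.362% of all genes. Of the 7 genes, 6, 5 and 6 were lower, beside 7550, 7416 and 7497 of 14926. An unadjusted p under 0.05 was reached by 0, 0 and 1 of the 7, beside 11.0%, 5.55% and 12.6%. This gene was TKT, named after its values were seen. Its log2 fold change for co-treated against control was -0.46 (interval -0.84 to -0.08, adjusted p = 0.290). PGD, of the pentose phosphate pathway, had the highest level and means of 54.1 ± 4.82, 61.5 ± 2.69 and 59.6 ± 0.530 FPKM (SD, n = 2 each). IDH1, the cytosolic isocitrate dehydrogenase, had means of 43.7 ± 3.54, 38.6 ± 0.431 and 43.5 ± 6.23 FPKM. Neither was called.

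The receptor that losartan blocks was hardly detected as RNA. AGTR1 had expected counts of 0 and 0 in control, 1 and 0 with alcohol and 0 and 2 in co-treated cells, all of them at or under the limit of 3 counts, so no fold is given. AGT, which encodes angiotensinogen, the source of angiotensin II, had 17.04 and 20.0 FPKM in control, 23.0 and 25.2 with alcohol and 25.5 and 25.3 in co-treated cells. All exposed libraries were above control. Over all genes tested, both alcohol libraries were above control for 22.0% and both co-treated ones for 21.6%. The log2 fold change of AGT was 0.34 (interval 0.05 to 0.63, adjusted p = 0.370) with alcohol and 0.41 (interval 0.12 to 0.70, adjusted p = 0.221) for co-treated against control. ACE, which makes angiotensin II, had 6 to 15 counts per library with overlap between the groups.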

How the data were processed

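Total RNA of 6 libraries was sequenced. Per the submitters' processing notes, HISAT2 2.0.4, Bowtie2 2.2.5, RSEM 1.2.12 and hg38 were used; their roles are not given in the sources used here. For each library the deposited tables held, per gene, the authors' expected count, its FPKM (scaled by transcript length and library size) and the length. Of the expected counts above 0, 33.9% were not whole. A gene absent from a library's table was set to 0.

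Expected counts were rounded and tested with edgeR 4.0.16 (R 4.3.3): quasi-likelihood F test, two-sided, TMM, filterByExpr (1.99 CPM in at least 2 libraries), all 6 libraries in 1 fit, Benjamini-Hochberg adjustment over 14926 genes, threshold 0.05. The steps were tested on simulated data. DESeq2 1.42.0, limma 3.58.1 on log2(FPKM + 1) or log2(FPKM + 0.1), other scaling and filters, the replicate number as a block, the compared groups alone and each library left out were alternatives. The methods of the study gave no count test to follow. Groups came from the labels. Intervals cover counting error only where called Poisson or binomial.

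All members were named. From each related list the 4 genes with the highest FPKM, genes that passed the test, and direct partners of members could be named. The members and lists were chosen with earlier results of these data known. Locations and starts came from RefSeq (GRCh38.p14), with promoters for 8 of 9 members, and transcripts from GENCODE 29. The values of 1 gene of the lists are not reported here.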

Additional observations from a re-analysis of the deposited data

How the results depend on the processing

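With 2 libraries per group and at most 30.4 expected counts in a library for any catalytic gene, depth limited every statement on them, and DUOX1 and NCF1 were not tested. No member was called in any of the 3 comparisons under the 14 alternatives. Of 280 recomputed member values 263 kept their direction and 17 reversed, and the cause was not tested. For NOX4 in co-treated against alcohol, the log2 fold change was 0.019 with limma on log2(FPKM + 1), 0.067 with limma on log2(FPKM + 0.1) and 0.0045 with the replicate block, beside -0.01. The other reversals came from leaving out a library. With alcohol against control the values then ran from -1.11 to 0.092 for NOX4, -0.17 to 0.36 for CYBB, -0.027 to 0.16 for CYBA and -0.29 to 5.73 for NOX5. For co-treated against alcohol they ran from -0.53 to 0.71 for NOX4, -0.19 to 0.31 for DUOX2 and -0.14 to 0.16 for RAC1, and for co-treated against control from -0.25 to 0.048 for CYBA and -0.26 to 0.038 for RAC1. With at least 10 counts in every library, only CYBA, DUOX2 and RAC1 had a value.

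The number of genes called over the whole table depended on the setting. With alcohol against control it was 10, and 72 with DESeq2, 0 and 2 with limma on log2(FPKM + 1) and log2(FPKM + 0.1), 2 without a filter, 26 with at least 10 counts in every library, 3 with only the groups compared and 1 to 220 with a library left out. For co-treated against alcohol it was 2, and 5 with DESeq2, 1 with limma on log2(FPKM + 1), 1 without a filter, 0 with at least 10 counts, 4 with only the groups compared and 1 to 24 with a library left out. For co-treated against control it was 54, and 128 with DESeq2, 2 and 3 with limma, 15 without a filter, 158 with only the groups compared and 2 to 184 with a library left out. The count was highest without alcohol replicate 1 in all 3 comparisons (220, 24 and 184).

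The labels number the replicates alike in each group but do not tie equal numbers together. With the replicate block the numbers of genes called were 48, 5 and 136. Deviations of libraries with equal numbers had correlations of 0.114, 0.0412 and -0.0162 across genes, so the numbers were not taken to pair the samples.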
